A study of Mus musculus with 4 samples.

Results

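The subunits of Polycomb repressive complex 1 (PRC1) were read in E14, an established line of mouse embryonic stem cells, after RNA interference against Npac and after a control RNA interference. The members were chosen by gene symbol, as all probe sets with 1 symbol in the array annotation that belonged to 10 named subunit genes. This gave 21 of the 45037 probe sets other than manufacturer's controls (45101 with controls), and they covered 9 of the 10 genes. Rybp had no probe set under the rule, because the 2 probe sets that carry its name also carry the name of its pseudogene, and it is not analysed here. Pcgf1, Ring1 and Phc1 had 1 probe set each, Pcgf2 and Bmi1 had 2, Pcgf5, Pcgf6 and Cbx7 had 3, and Rnf2 had 5.

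The study held 4 single-channel Affymetrix arrays, 2 from cells labelled control RNAi and 2 from cells labelled Npac RNAi. Both groups were E14 cells grown with 15% fetal bovine serum and 1000 units per ml of LIF, the cytokine that keeps them undifferentiated. They were transfected with a short hairpin plasmid, put under puromycin after 24 hours and harvested after 3 days of selection. Which hairpin the control cells received, and how many hairpins against Npac were used, is not given in the sources used here. Nothing in the labels says that replicate arrays came from separate cultures, so the p-values measure only the spread between these arrays, which may be technical. Npac, now named Glyr1, is a nucleosome-binding protein that recognises a methylation mark of transcribed gene bodies.

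PRC1 is a family of ubiquitin ligases for histone H2A that holds developmental genes silent. Each complex has a catalytic RING protein, Rnf2 (RING1B) or Ring1 (RING1A), bound to 1 of several Pcgf proteins, and the Pcgf protein decides which other subunits join. Canonical PRC1 holds Pcgf2 or Bmi1 with a Cbx protein, which reads the histone mark laid down by PRC2, and a Phc protein, which joins complexes to each other and compacts chromatin. Variant PRC1 holds Rybp or Yaf2 in place of the Cbx protein, and Pcgf1, Pcgf3, Pcgf5 and Pcgf6 each assemble their own form of it. In embryonic stem cells variant complexes deposit most of the ubiquitin on H2A, while Cbx7 is the usual Cbx protein of the canonical complex.

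Pcgf5 rose and Phc1 fell, and these were the largest differences among the 9 genes measured. Bmi1 and Cbx7 rose by smaller amounts at their brightest probe sets. Pcgf1, Pcgf2, Pcgf6, Rnf2 and Ring1 had no call at theirs. Counted over probe sets, 5 of 21 were called higher and 3 lower, or 38.1%, beside 28.2% of all probe sets (14.2% higher and 14% lower). Counted over genes by the brightest probe set, 3 of 9 were called higher and 1 lower, or 44.4%, beside 33.9% of all 18193 genes (19.3% higher and 14.6% lower). These shares lie near the background, so the number of calls is no result about PRC1 subunits as a group. The median log2 difference was 0.15 over the 9 genes and -0.04 over all genes. A call means an adjusted p under 0.05 in limma, a linear model with a shared estimate of the spread, fitted to all 45037 probe sets with Benjamini-Hochberg adjustment over all of them.

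The values are log2 signals after RMA, a normalization that makes the bulk of the probes alike on all arrays, so each difference is relative to that bulk. Spike-in controls are bacterial RNAs mixed into each sample in known amounts. Their 24 probe sets for poly-A transcripts read 0.54 higher on the Npac RNAi arrays on average, and 24 of 24 were higher. They read only the dap, lys, phe and thr RNAs, several probe sets to each, so they are not 24 independent readings. Whether the amount added differed between samples was not tested. Scaling on these spike-ins shifts every log2 difference by -0.54, and the member calls then become 3 probe sets higher and 17 lower. A rise smaller than 0.54 therefore changes sign under that scaling. The rises of Pcgf5, Phc2, Bcor, Hoxb13, Hoxc13, Taf7l and Cdkn2b described here kept both their sign and their call. Those of Auts2, Ddx4, Rbbp7, Hoxb9, Ezh1 and Scmh1 kept their sign only. They read from 0.0023 (Auts2) to 0.11 (Scmh1) under that scaling, with no call. Glyr1 itself stood at 11.30 and 11.32 on the control arrays and at 10.23 and 10.20 on the Npac RNAi arrays, which is 46.9% of the control level (log2 difference -1.09, SE 0.0554, limma adjusted p = 0.00171). Of 8 markers of pluripotent cells 6 were called lower (mean level 12.63 on both control arrays, 12.10 and 12.11 on the Npac arrays), of 10 trophoblast markers 9 were called higher (8.38 and 8.35 against 10.11 and 10.12), and of 8 fibroblast markers 1 was called higher (5.72 and 5.65 against 5.75 and 5.72). These shifts lie along the same group comparison as every result below, and their part in those results was not tested. In such a bulk sample a change in the share of cells of a type and a change in RNA per cell cannot be told apart.

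The start regions of Pcgf5 and Phc1 are shown because these were the members with the largest differences. Each is a RefSeq window of 300 bases on GRCm38.p6, from 250 bases before an annotated start to 50 after it, printed along the gene's strand with CG dinucleotides in capitals, since PRC1 is known to gather at CpG-rich starts. Pcgf5 has 3 annotated starts, at chr19:36348079-36348378, chr19:36378817-36379116 and chr19:36409498-36409797 on the plus strand, and Phc1 has 1, at chr6:122340178-122340477 on the minus strand.
Pcgf5, upstream start: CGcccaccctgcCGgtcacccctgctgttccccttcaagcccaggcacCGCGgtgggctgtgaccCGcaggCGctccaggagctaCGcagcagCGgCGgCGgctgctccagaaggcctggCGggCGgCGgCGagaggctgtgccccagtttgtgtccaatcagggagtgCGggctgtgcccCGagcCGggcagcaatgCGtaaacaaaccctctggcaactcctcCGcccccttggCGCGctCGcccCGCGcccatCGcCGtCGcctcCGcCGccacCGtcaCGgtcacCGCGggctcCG
Pcgf5, middle start: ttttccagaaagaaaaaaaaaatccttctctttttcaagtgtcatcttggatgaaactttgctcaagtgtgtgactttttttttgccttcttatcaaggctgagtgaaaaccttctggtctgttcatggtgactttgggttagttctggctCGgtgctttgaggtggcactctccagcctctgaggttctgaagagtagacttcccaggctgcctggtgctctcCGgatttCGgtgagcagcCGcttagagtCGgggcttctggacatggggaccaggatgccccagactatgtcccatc
Pcgf5, downstream start: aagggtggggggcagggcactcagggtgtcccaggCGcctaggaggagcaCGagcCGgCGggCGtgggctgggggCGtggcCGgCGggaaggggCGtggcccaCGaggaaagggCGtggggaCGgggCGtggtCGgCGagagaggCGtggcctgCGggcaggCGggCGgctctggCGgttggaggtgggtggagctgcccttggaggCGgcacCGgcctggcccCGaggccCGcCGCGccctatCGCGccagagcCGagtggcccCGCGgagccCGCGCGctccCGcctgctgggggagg
Phc1: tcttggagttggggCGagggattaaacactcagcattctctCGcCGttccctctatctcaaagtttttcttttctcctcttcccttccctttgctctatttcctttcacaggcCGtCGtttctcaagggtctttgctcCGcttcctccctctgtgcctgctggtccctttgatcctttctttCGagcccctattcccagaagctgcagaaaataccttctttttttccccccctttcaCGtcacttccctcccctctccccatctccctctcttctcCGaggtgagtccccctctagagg

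The upstream and downstream Pcgf5 windows held 34 and 35 CG dinucleotides, more than 92.3% and 93.0% of the 32851 mouse promoter windows of that length. The middle Pcgf5 window held 5 and the Phc1 window 9, beside a median of 7 over all windows. Windows were found for 8 of the 9 member genes, and the other 6 held from 10 (Pcgf2) to 37 (Ring1). The letters GGGCGG, a binding sequence of Sp1, occurred on either strand in the upstream and downstream Pcgf5 windows and not in the middle one or that of Phc1, and 35.7% of all windows hold them. The letters CACGTG, an E-box, occurred in the windows of Pcgf2 and Bmi1 among the members, beside 7.15% of all windows. The octamer ATGCAAAT, known as a binding sequence of Oct factors, occurred in none of the members' windows, and 1.74% of all windows hold it. Each motif was recorded only as present or absent in a window. The arrays do not show which start was used.

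Pcgf5, the Pcgf protein of a variant complex that spreads H2A ubiquitin broadly, was read by 3 probe sets, and all rose. The brightest, 1429564_at, stood at 10.36 and 10.31 on the control arrays and at 11.38 and 11.36 on the Npac RNAi arrays. The groups lay far apart beside the spread of replicates, and the log2 difference was 1.03 (SE 0.0576, limma adjusted p = 0.00205), a 2.04-fold rise. Probe set 1434666_at read 8.13 and 7.87 in control and 9.07 and 9.23 in Npac RNAi, or 1.15 higher on the log2 scale (SE 0.116, limma adjusted p = 0.00605). Probe set 1453636_at read 6.03 and 6.21 in control and 7.53 and 7.64 in Npac RNAi, or 1.47 higher on the log2 scale (SE 0.0877, limma adjusted p = 0.00226). The intervals of the brightest probe set (0.88 to 1.18) and of the last (1.23 to 1.70) do not overlap, but their difference was not tested, and probe sets differ in how fully they follow a change. All 3 stayed above 0 under the spike-in scaling, where the brightest read 0.49 higher. Without moderation of the variances the brightest kept its call, and the other 2 lost theirs (adjusted p = 0.0971 and 0.062).

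**Figure D1:**
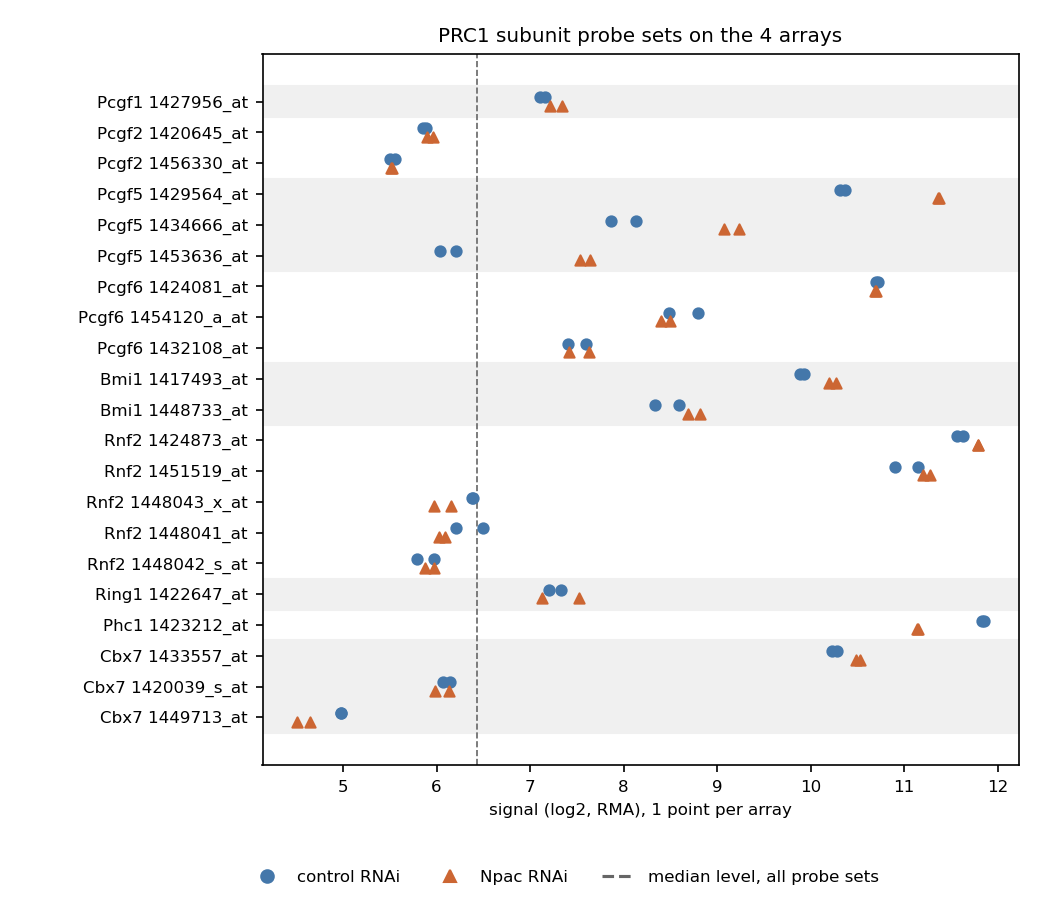
Each row is 1 probe set of a PRC1 subunit gene, with the log2 RMA signal on the horizontal axis, circles for the 2 control RNAi arrays, triangles for the 2 Npac RNAi arrays and a dashed line at the median level of all probe sets (6.44). The groups stand clearly apart for the 3 Pcgf5 probe sets, which are higher in Npac RNAi, and for Phc1, which is lower (11.83 and 11.86 against 11.14 and 11.14).

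Phc1, a Polyhomeotic protein of canonical PRC1 whose SAM domain joins complexes into larger assemblies, was the member gene that fell. Its probe set, 1423212_at, stood at 11.83 and 11.86 on the control arrays and at 11.14 on each Npac RNAi array. The groups did not overlap, and the fall left 61.5% of the control level (log2 difference -0.70, SE 0.0554, 95% interval -0.85 to -0.56, limma adjusted p = 0.00373). The call on Phc1 held in all 18 alternatives run on it, with differences from -1.24 under spike-in scaling to -0.68. It rests on 1 probe set, so it has no second reading within the array.

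The other canonical Pcgf and Cbx subunits moved less. Bmi1, a Pcgf protein best known for repressing the Ink4 locus in stem cells, stood at 9.93 and 9.88 on the control arrays and at 10.20 and 10.27 on the Npac RNAi arrays at its brightest probe set, 1417493_at. The groups did not overlap, and the log2 difference was 0.33 (SE 0.0622, limma adjusted p = 0.0244), or 1.26-fold. Its other probe set, 1448733_at, read 8.59 and 8.34 in control and 8.69 and 8.81 in Npac RNAi, with no call (0.29, SE 0.108, limma adjusted p = 0.114). Leaving out any array ended the call on Bmi1 (limma adjusted p from 0.0688 without Npac array 1 to 0.119 without control array 2), and with spike-in scaling the value was -0.21.

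Pcgf2 (Mel18), the close relative of Bmi1, was dim, with both probe sets below the median level of all probe sets (6.44). Probe set 1420645_at read 5.88 and 5.85 in control and 5.89 and 5.96 in Npac RNAi, and 1456330_at read 5.50 and 5.56 in control and 5.51 and 5.52 in Npac RNAi. The groups overlapped at the second and lay side by side at the first. The log2 differences were 0.06 (95% interval -0.10 to 0.22) and -0.01 (-0.16 to 0.15), with limma adjusted p = 0.486 and 0.921. A change larger than these intervals was not seen in the signal, although a dim probe set may follow the RNA poorly.

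Cbx7, the chromodomain protein that binds the PRC2 mark, gave readings of opposite sign. Its brightest probe set, 1433557_at, stood at 10.23 and 10.28 in control and at 10.49 and 10.53 in Npac RNAi (log2 difference 0.25, SE 0.0591, limma adjusted p = 0.0396). The dimmest, 1449713_at, stood at 4.98 and 4.97 in control and at 4.64 and 4.50 in Npac RNAi (-0.40, SE 0.071, limma adjusted p = 0.0208). The groups did not overlap at either. Probe set 1420039_s_at, also below the median level, read 6.07 and 6.15 in control and 5.99 and 6.13 in Npac RNAi, with overlapping groups (-0.05, limma adjusted p = 0.655). The call on the brightest ended when any array was left out (limma adjusted p from 0.105 to 0.158), after quantile normalization (0.0725) and after cyclic loess (0.0549). The mean over the 3 probe sets was -0.07, and the direction of Cbx7 is therefore not settled by these arrays.

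**Figure D2:**
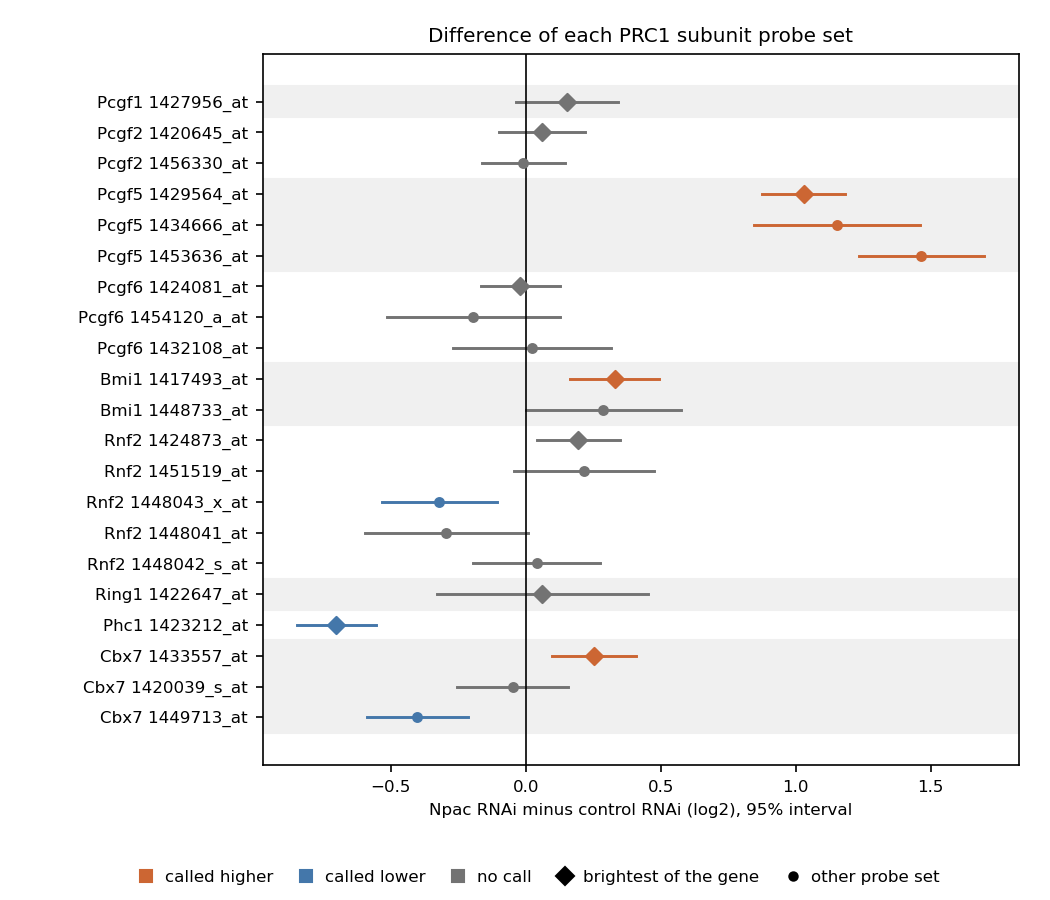
Each row is 1 probe set, with the log2 difference (Npac RNAi minus control RNAi) on the horizontal axis and a bar for its 95% interval from limma, and diamonds mark the brightest probe set of each gene. Orange marks probe sets called higher (5), blue those called lower (3) and grey those with no call (13). Pcgf2, Pcgf6, Rnf2 and Cbx7 have probe sets on both sides of 0.

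The catalytic RING proteins showed no call at their brightest probe sets. Rnf2, the main H2A ubiquitin ligase of embryonic stem cells, stood at 11.63 and 11.57 in control and at 11.80 and 11.79 in Npac RNAi at 1424873_at. The groups did not overlap, but the log2 difference of 0.19 (SE 0.0586, 95% interval 0.04 to 0.35) missed the threshold (limma adjusted p = 0.0705). It passed when 1 probe set per gene was fitted (adjusted p = 0.041), among probe sets at or above the median level (0.0202) and with the trend option (0.00122). Probe set 1451519_at read 11.14 and 10.91 in control and 11.21 and 11.28 in Npac RNAi (0.22, SE 0.0985, limma adjusted p = 0.167).

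The 3 other Rnf2 probe sets lay below the median level and did not follow the bright ones. Probe set 1448043_x_at fell from 6.38 and 6.39 in control to 6.15 and 5.98 in Npac RNAi (-0.32, SE 0.0805, limma adjusted p = 0.0462), a call that ended when any array was left out (limma adjusted p from 0.0589 to 0.173). Probe set 1448041_at read 6.20 and 6.50 in control and 6.09 and 6.02 in Npac RNAi (-0.29, limma adjusted p = 0.119). Probe set 1448042_s_at read 5.98 and 5.79 in control and 5.87 and 5.97 in Npac RNAi, with overlapping groups (0.04, limma adjusted p = 0.762). The mean over the 5 Rnf2 probe sets differed by -0.03. Ring1, the other RING protein, read 7.33 and 7.21 in control and 7.13 and 7.53 in Npac RNAi. Its groups overlapped and its replicates spread most among the brightest probe sets in Npac RNAi (SD 0.279), so the interval of its difference was wide (0.06, 95% interval -0.33 to 0.45, limma adjusted p = 0.781).

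Pcgf1 and Pcgf6, which assemble their own variant complexes, had no call at any probe set. Pcgf1, which works with Kdm2b and Bcor at CpG islands, read 7.10 and 7.15 in control and 7.22 and 7.34 in Npac RNAi (0.15, SE 0.071, 95% interval -0.04 to 0.34, limma adjusted p = 0.173). Pcgf6, which works with Mga, Max and E2f6 at germline genes and is known to support the stem cell state, read 10.72 and 10.70 in control and 10.69 and 10.70 in Npac RNAi at its brightest probe set, 1424081_at. Its log2 difference was -0.02 (SE 0.0553, 95% interval -0.17 to 0.13, limma adjusted p = 0.806), among the tightest intervals of the members. Probe sets 1454120_a_at and 1432108_at for Pcgf6 differed by -0.19 (8.79 and 8.48 against 8.39 and 8.49) and 0.02 (7.59 and 7.40 against 7.41 and 7.63), with overlapping groups at both.

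Groups without overlap were found for 15 of the 21 member probe sets. That share says little, since 69% of all probe sets had groups without overlap, with 2 arrays each. Of the 7 member probe sets below the median level 2 were called, both lower (Rnf2 1448043_x_at and Cbx7 1449713_at). The 5 calls of higher signal all came from probe sets at or above that level.

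Other genes of PRC1 were read from lists chosen with earlier results of these data known, each gene by its brightest probe set. All counts of these genes are to be read beside the 33.9% of all genes that were called (19.3% higher and 14.6% lower). Of all 18193 genes 6752 lay below the median level of all probe sets, and only 1188 of these were called. The share called was thus higher among brighter genes. Of 7 other genes of canonical PRC1 2 were called higher and 1 lower (42.9%, median difference 0.13), a share near that of all genes and no result about the list. Phc2, a relative of Phc1, rose by 0.80 on the log2 scale (SE 0.0618, limma adjusted p = 0.00356), or 1.74-fold, from 9.97 to 10.78. The direction is thus opposite to that of Phc1, while the third relative, Phc3, had no call (0.13, limma adjusted p = 0.153). Scmh1, a SAM domain protein that can join PRC1, rose by 0.65 (SE 0.0708, limma adjusted p = 0.00704), and Scml2, a related protein, fell by 0.60 (SE 0.0953, limma adjusted p = 0.0162). No call was made on Cbx2 (-0.16), Cbx6 (0.03) or Cbx8 (0.20), which were chosen after their values were seen. Leaving out an array left 1 or 2 of the 7 higher and 0 lower, quantile normalization gave 2 and 2, 1 probe set per gene 3 and 2, and spike-in scaling 1 and 5. Without probe sets of the _x_at and _s_at kinds, which can match several transcripts, 5 of the 7 were measured, 1 higher and 1 lower. Phc2 was read by an _x_at probe set and so was not among these 5. Its call also ended without moderation of the variances (adjusted p = 0.0537).

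Of 22 other genes of variant PRC1 10 were called higher and 5 lower (68.2%, beside 33.9% of all genes, 19.3% higher and 14.6% lower, and a median difference of 0.12). None of the 22 lay below the median level of all probe sets, so the share of all genes understates the background for them. Bcor, the scaffold of the Pcgf1 complex, rose most, from 8.49 to 10.58 (log2 difference 2.10, SE 0.076, limma adjusted p = 0.0011), or 4.27-fold, and it was called higher in all 17 alternatives run on it. Auts2, which couples the Pcgf3 and Pcgf5 complexes to gene activation, rose by 0.54 (SE 0.0732, limma adjusted p = 0.0113), although the mean over its probe sets was 0.16 with no call. The DNA-binding factor E2f6 of the Pcgf6 complex (0.52, SE 0.0558, limma adjusted p = 0.0068) and Yaf2, the relative of Rybp (0.48, SE 0.0658, limma adjusted p = 0.012), also rose. The mean over the probe sets of E2f6 was 0.29, still called. Without 1 array only 1 to 3 of the 22 were called higher and 0 lower. Spike-in scaling gave 1 higher and 14 lower, and the mean of probe sets 5 and 6.

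The same genes were also sorted by the complex they belong to, a grouping made after their values were seen. Beside Pcgf5, 7 genes of the Pcgf3 and Pcgf5 complexes were measured, of which 6 were called higher and 1 lower. Of all genes 19.3% were called higher and 14.6% lower, shares that include dim genes, while none of the 7 lay below the median level. The higher ones were Auts2, Fbrs (0.36), the casein kinase subunits Csnk2a2 (0.31) and Csnk2a1 (0.30), Pcgf3 (0.30) and the WD repeat protein Dcaf7 (0.27), and Fbrsl1 was lower (-0.30). Apart from Auts2 all of these rises were under 0.54, and Auts2 read 0.0023 with no call under the spike-in scaling. None of the 6 was thus called higher under that scaling. Beside Pcgf1, 5 genes of its complex gave 1 higher (Bcor) and 1 lower, the CpG-binding demethylase Kdm2b (-0.39). Beside Pcgf6, 9 genes of its complex gave 2 higher (E2f6 and Max, 0.25) and 3 lower (Wdr5, -0.45, Cbx3, -0.44, and Hdac1, -0.30). Cbx3 was dim, at 6.72 in control and 6.28 in Npac RNAi, near the median level of all probe sets (6.44), where a probe set may follow the RNA poorly. The counts for the Pcgf1 and Pcgf6 complexes likewise stand beside those shares of all genes, and none was set against other lists by a test. Members of this grouping beyond Bcor, Auts2, E2f6 and Yaf2 were named after their values were known.

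**Figure D3:**
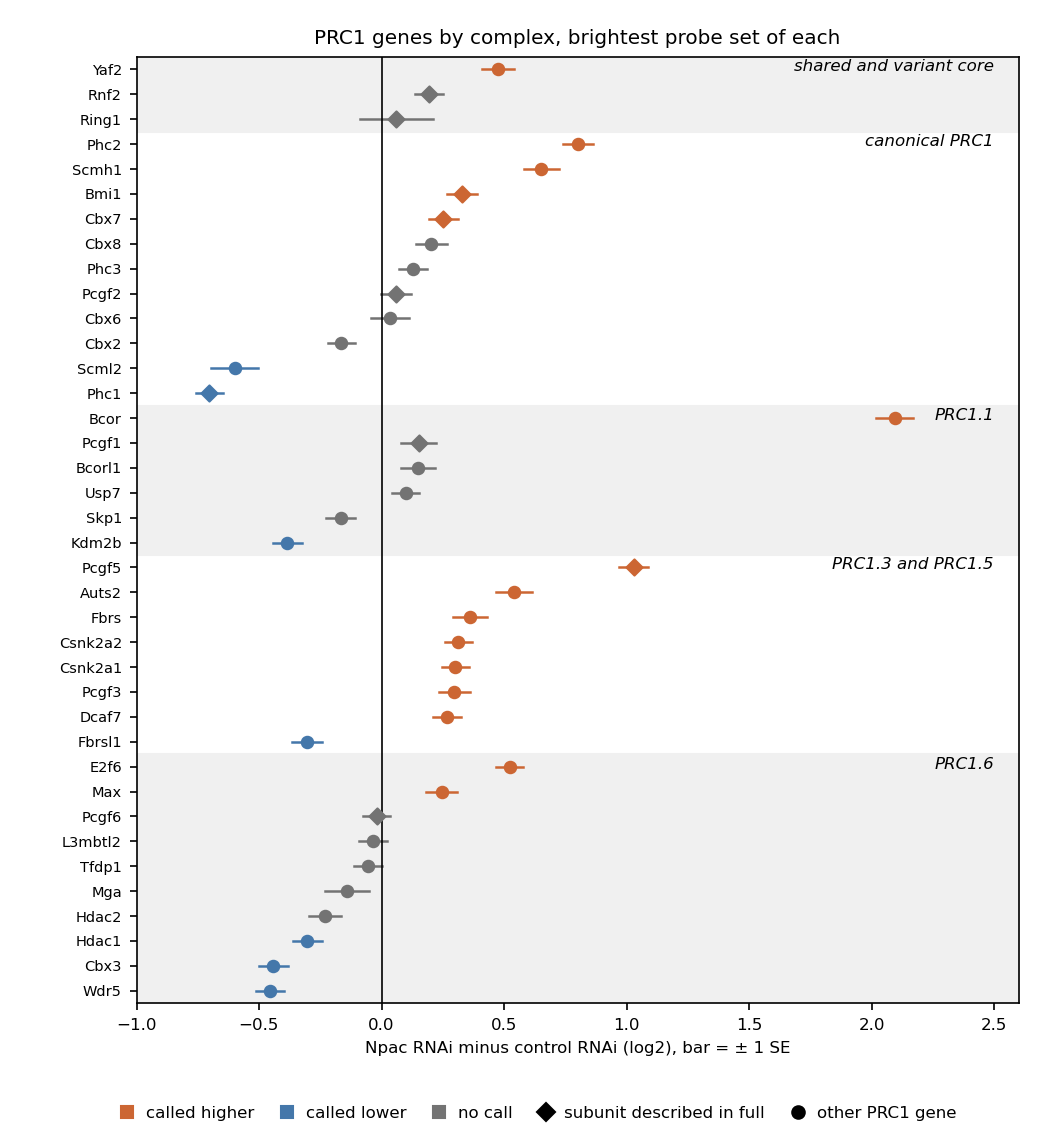
Each row is 1 PRC1 gene at its brightest probe set, sorted within the complex it belongs to, with the log2 difference (Npac RNAi minus control RNAi) and a bar of ± 1 SE, and diamonds for the 9 subunits described in full. Bcor (2.10) and Pcgf5 (1.03) lie furthest to the right, and Phc1 (-0.70) and Scml2 (-0.60) furthest to the left.

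**Figure D4:**
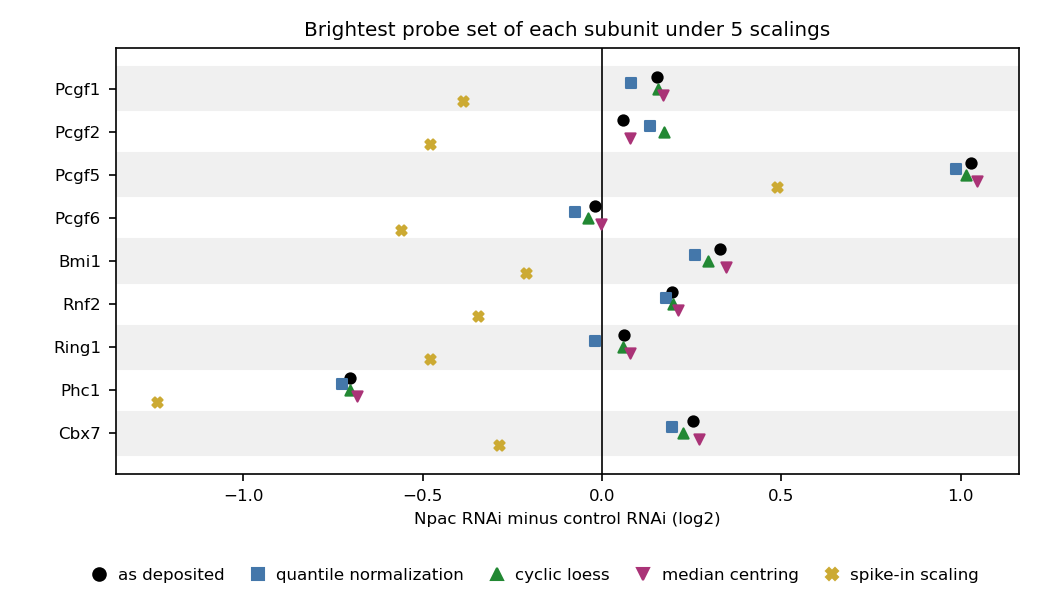
Each row is the brightest probe set of 1 subunit, with its log2 difference under 5 scalings marked by symbol. Pcgf5 stays above 0 and Phc1 below 0 under all 5, while the spike-in scaling places Pcgf1 (-0.39), Pcgf2 (-0.48), Bmi1 (-0.21), Rnf2 (-0.35), Ring1 (-0.48) and Cbx7 (-0.29) on the other side of 0 from their deposited values.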

How the data were processed

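RNA from 2 control RNAi and 2 Npac RNAi samples was read on Affymetrix arrays, and the titles gave the groups and replicate numbers. The authors deposited a log2 value for each probe set on each array, made with RMA per the submitters' processing notes, which give no version. The log2 scale is not stated in the deposited table and was inferred from values between 2.78 and 15.05. Of 45037 probe sets other than controls 34945 carried 1 symbol, 932 several and 9160 none in the annotation used here. For 34741 of those with 1 symbol the Entrez identifier was found in RefSeq (GRCm38.p6), and the symbol given there was used, whether or not it differed. Probe sets with several symbols named no gene. Each probe set was a row of 1 limma fit (version 3.58.1, R 4.3.3; lmFit, then eBayes, group as the only term, no filter on dim probe sets, 2 residual and 2.56 prior degrees of freedom), with Benjamini-Hochberg adjustment over all rows. SEs and 95% intervals are limma's, and intervals are not adjusted for the number of probe sets. A gene was read from its brightest probe set, by mean signal on all 4 arrays. The fit was tested on simulated data. It recovered the size of simulated differences whether many or few probe sets changed, which the way they were simulated ensures. With few changed it called none of them. A second form was made after seeing this, in which the probe sets called in these data kept their observed differences. There it called part of the added differences, so the calls given here rest in part on how many probe sets differ between the groups. The precision is limited by 2 arrays per group.

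The members and gene lists were chosen with earlier results of these data known. All members are named, Glyr1 as a check, and from each list up to 4 called genes with the largest differences and groups without overlap, plus Cdkn2a and Cdkn2b. Phc3, Cbx2, Cbx6, Cbx8 and the further genes of the sorting by complex fall outside this rule and were named after their values were seen. Alternatives were other variance options, scalings, probe set choices, thresholds, a replicate block and each array left out. Replicate arrays correlated at 0.998 in each group (Pearson's r over probe sets).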

Additional observations from a re-analysis of the deposited data

How the results depend on the processing

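Pcgf5 at its brightest probe set and Phc1 kept direction and call in all 18 alternatives run on them. Over all member probe sets 269 readings under an alternative kept direction and call status. Another 38 lost a call, 10 gained one and 27 changed sign. The 269 include those of the 13 probe sets with no call as deposited, which had no call to keep. Of the other called probe sets, Pcgf5 1434666_at and 1453636_at kept both in 15 of 16 alternatives each. Bmi1 1417493_at did so in 9 of 18 and Cbx7 1433557_at in 6 of 18. Cbx7 1449713_at did so in 7 of 15 and Rnf2 1448043_x_at in 4 of 14. Alternatives that leave the values as deposited and keep all arrays cannot change a direction. As deposited 5 member probe sets were higher and 3 lower, and by gene 3 and 1. The probe sets higher were 8 with the trend option, 1 without moderation, and 3 with spike-in scaling, an adjusted p under 0.01, a minimum fold of 1.2 and the replicate block, and 3 without any 1 array. The probe sets lower were 1 without moderation, among probe sets at or above the median level, under an adjusted p of 0.01, with a minimum fold of 1.2, with the replicate block and without any 1 array, and 17 with spike-in scaling. By gene, 1 was higher without moderation, with spike-in scaling, under an adjusted p of 0.01, with a minimum fold of 1.2, with the replicate block and without any 1 array, and 7 were lower with spike-in scaling. Leaving out an array or adding a block also removes a residual degree of freedom. A block that pairs control array 1 with Npac array 2, chosen after seeing the data because deviations of same-numbered arrays correlated at -0.145 over probe sets, gave 4 probe sets higher and 2 lower.

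Spike-in scaling turned Bmi1 (-0.21 and -0.25), Pcgf2 1420645_at (-0.48), Ring1 (-0.48), Rnf2 1424873_at (-0.35), 1451519_at (-0.32) and 1448042_s_at (-0.50), Pcgf1 (-0.39), Pcgf6 1432108_at (-0.52) and Cbx7 1433557_at (-0.29), by its constant shift. Quantile normalization turned Cbx7 1420039_s_at (0.0078), Ring1 (-0.019), Pcgf6 1432108_at (-0.074) and Pcgf2 1456330_at (0.081). Cyclic loess turned the named Cbx7 and Pcgf2 probe sets (0.0498 and 0.12), and median centring turned Pcgf2 1456330_at (0.0088). The mean of probe sets turned Rnf2 (-0.033) and Cbx7 (-0.066). None of the values turned by these 4 was called as deposited, apart from Cbx7 1433557_at. With 1 array left out, Cbx7 1420039_s_at ran from -0.12 to 0.0235, Ring1 from -0.14 to 0.26, Pcgf6 1432108_at from -0.088 to 0.13, Rnf2 1448042_s_at from -0.052 to 0.13 and Pcgf2 1456330_at from -0.0397 to 0.0213. The cause of these changes beyond the constant shift was not tested. Spike-in scaling moved the median of all genes by -0.54 and left 3.79% of all calls higher, against 50.2% as deposited.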

Other observations

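Genes that PRC1 is known to repress, and the enzymes that act beside it, were read in the same fit by their brightest probe sets, beside 33.9% of all genes called (19.3% higher and 14.6% lower). Of 16 germline genes taken as targets of the Pcgf6 complex 8 were called higher and 0 lower in limma (1 lower at an unadjusted p under 0.05, and a median difference of 0.27). Only 1 of the 16 lay below the median level of all probe sets, so the share of all genes understates their background. These genes were also chosen with earlier results known. The rises were led by Taf7l, a germ cell transcription factor (1.41, SE 0.0622, limma adjusted p = 0.00135), the RNA helicase gene Ddx4 (0.55, SE 0.0928), and the meiotic chromosome genes Sycp1 (0.52, SE 0.0549) and Hormad1 (0.51, SE 0.0627). The last 3 had limma adjusted p from 0.00671 to 0.0186. Quantile normalization gave 7 higher and 2 lower, spike-in scaling 1 and 8, and leaving out an array left 1 to 3 higher and 0 lower. Taf7l was called higher in all 18 alternatives run on it.

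Of 33 genes of the Hox clusters 3 were called higher and 4 lower (median -0.05), and 21 of the 33 lay below the median level of all probe sets. Hoxb13 (1.13, SE 0.112, limma adjusted p = 0.00584) and Hoxc13 (0.85, SE 0.0677, limma adjusted p = 0.00381) rose most, Hoxb9 rose by 0.55 and Hoxa9 fell by 0.53 on the log2 scale (limma adjusted p = 0.0113 and 0.0466), the latter with no call after cyclic loess (0.0506). The split was 4 higher and 0 lower with cyclic loess, 4 and 2 after quantile normalization, 3 and 2 after median centring, 5 and 5 when each gene's probe sets were averaged, and 2 and 27 with spike-in scaling, and leaving out an array left 2 or 3 higher and 0 or 1 lower. At the Ink4 locus, a known target of Bmi1, the cell cycle inhibitor gene Cdkn2b rose from 7.98 to 9.50 (1.51, SE 0.0885, limma adjusted p = 0.00219). With 1 array left out its difference ran from 1.44 to 1.59. Its call ended without moderation of the variances (adjusted p = 0.0612). Cdkn2a read 6.50 in control and 6.69 in Npac RNAi with overlapping groups (0.19, SE 0.113, limma adjusted p = 0.251), and was called lower with spike-in scaling (-0.34).

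Of 11 PRC2 genes 3 were called higher and 1 lower, although their median was -0.14. The catalytic subunit gene Ezh1 (0.60, SE 0.0648), the histone chaperone Rbbp7 (0.55, SE 0.0554) and Aebp2 (0.23, SE 0.0553) rose and Suz12 (-0.36, SE 0.0554) fell, at limma adjusted p from 0.00604 to 0.043. The mean over probe sets was 0.24 for Ezh1, -0.56 for Suz12, and 0.09 with no call for Aebp2 (limma adjusted p = 0.181), which also lost its call after quantile normalization (0.0574). The split was 3 higher and 3 lower with 1 probe set per gene fitted and 2 and 3 when probe sets were averaged. It was 3 and 0 without _x_at and _s_at probe sets, where 8 of the 11 were measured. Leaving out an array left 0 to 2 higher and 0 lower, and spike-in scaling gave 0 and 9. Of 8 genes of enzymes that remove ubiquitin from H2A and their partners 0 were called higher and 2 lower in limma (0 higher and 2 lower at an unadjusted p under 0.05), namely Asxl1 (-0.51, SE 0.0653) and Asxl3 (-0.29, SE 0.0721), partners of the enzyme Bap1, while the list's median was 0.09. The mean over probe sets was -0.18 for Asxl1, still called, and -0.08 with no call for Asxl3 (limma adjusted p = 0.585). Asxl3 was read below the median level of all probe sets, and it lost its call after quantile normalization (0.0755) and cyclic loess (0.115). With the mean of probe sets the list gave 1 higher and 2 lower. Leaving out an array left 0 or 1 lower, and spike-in scaling gave 8 lower.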
